A study of Mus musculus with 16 samples.

Results

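Interferon-stimulated genes are the antiviral programme that cells switch on when they sense interferon. The set described here holds 35 mouse genes, chosen by name from that programme: transcription factors of the pathway, RNA sensors, the Ifit and Oas families, the Isg15 system, further antiviral effectors and interferon-inducible GTPases. The RefSeq accessions of the array's probes matched 33 of the 35. Mx1 and Mx2 were not matched and were not analysed here. The 33 genes had 48 probes, 47 of which passed the filter on dim probes, and all 33 passed as genes. The probe used for each gene was well above background on all 16 arrays, so no member owed its place to the group where it was high. They stood among 15467 genes tested, out of 19096 with a named probe.

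The study compared male mice lacking the glucocorticoid receptor in adipose tissue with control mice, which the design text calls wild-type. The 4 groups were measured in total RNA on 1-colour Agilent arrays, 4 arrays in each: white fat of knockout mice (AdipoKO_WAT), white fat of control mice (CTL_WAT), brown fat of knockout mice (AdipoKO_BAT) and brown fat of control mice (CTL_BAT). The promoter that drives the deletion, the age of the mice and any treatment are not given in the sources used here. Nr3c1, which encodes the receptor, had log2 levels of 1.50 and 1.27 in knockout white fat against 2.43 and 2.14 in control white fat. In brown fat it had 1.50 and 1.69 in knockouts against 2.46, 2.62 and 2.29 in controls. The knockout samples thus lay below every control sample of their tissue, although neither difference passed the test (log2 difference -0.90 ± 0.23 SE, adjusted p = 0.415 in white fat, and -0.85 ± 0.21, adjusted p = 0.619 in brown fat).

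The 16 arrays did not behave as 16 independent samples. Pairing the arrays of each group in every way gave 24 pairs. In 9 pairs the differences were smaller than the spot errors stated by the scanner software, and no more than 12 of 9836 bright probes had a gap over 2-fold. Each of the remaining 15 pairs had 265 or more such probes. Arrays that close were averaged and counted once, which left 9 samples. White knockout array 1 and arrays 2 to 4 made 2 samples, and white control arrays 1 and 4 and arrays 2 and 3 made 2. Brown knockout array 1 and arrays 2 to 4 made 2, and brown control array 1, arrays 2 and 3, and array 4 made 3. The design text calls the arrays of a group biological replicates, and whether the close ones are repeat hybridisations, pooled RNA or separate mice is not given in the sources used here. For the members, arrays counted as 1 sample differed by a median of 0.045 to 0.104 on the log2 scale, with 0.889 as the widest gap of any member. Brown control arrays 2 and 3 also stood apart in some markers of brown fat. Ucp1, the uncoupling protein of brown fat, had log2 levels of 6.54, -0.83 and 8.08 in brown controls against -1.68 and -1.88 in white controls. Elovl3 and Otop1, at -4.74 and -3.62 in arrays 2 and 3, lay below both white controls there, as did Cidea at 2.75. Not every marker did so, and in arrays 2 and 3 Cox7a1 (7.9) and Cox8b (7.1) lay above both white controls. Ppargc1a, at 1.35 there, was the highest of the brown controls. The members' medians that use brown controls are therefore given with and without these arrays. Values of single genes, counts of overlap and other lists include them. P-values measure the spread between these samples, which may be technical. Unless stated otherwise, a level is the log2 intensity minus the log2 of the 75th percentile of its array, so a level of 0 lies at that percentile and a difference of 1 is 2-fold. Values of a group are given in the order of the samples above. Levels of different genes come from different probes and are not compared.

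Interferons bind receptors on the cell surface, and the Janus kinases attached to these receptors phosphorylate STAT proteins. Stat2 and Irf9 belong to the complex that acts downstream of type I interferon, which binds a DNA element called the interferon-stimulated response element. Interferon gamma acts through another element, the gamma-activated site, and induces GTPases such as Igtp and Gbp2. Adipocytes, macrophages and lymphocytes of fat can all respond to interferon, and the glucocorticoid receptor is known in immune cells as a repressor of parts of this programme. In bulk tissue, fewer cells of a type and less RNA per cell cannot be told apart.

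RefSeq's promoter table (GRCm38.p6, 250 bases before to 50 after each gene's start) held 26 of the 35 members. Mx1, Mx2, Oas2, Usp18, Dhx58, Ifi27, Rtp4, Parp14 and Parp9 were not matched in it. The response element was searched as GAAANNGAAA on both strands, where N is any base, so that the opposite strand reads TTTCNNTTTC. Overlapping matches were counted separately. It was found in 16 of the 26 members (61.5%), in 3.44% of all 32851 promoters of the table and in 3.99% of its 27025 genes. The gamma-activated site, searched as TTCNNNGAA, which reads the same on both strands, was found in 6 of 26 members (23.1%), in 8.3% of all promoters and in 9.55% of genes. The promoters below belong to 7 of the members whose levels the results turn on: 6 that hold the response element, in capitals, and Oasl2, which had one of the largest knockout differences and no match in this window. Each reads 5′ to 3′ on the strand of its gene.
Ifit1, chr19:34640639-34640938, plus strand: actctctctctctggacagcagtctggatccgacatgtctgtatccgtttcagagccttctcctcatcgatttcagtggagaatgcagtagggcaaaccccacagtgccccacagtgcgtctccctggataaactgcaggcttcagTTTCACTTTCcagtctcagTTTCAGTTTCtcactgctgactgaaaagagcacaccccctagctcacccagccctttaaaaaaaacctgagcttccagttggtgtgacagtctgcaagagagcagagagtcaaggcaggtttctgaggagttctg
Ifit3, chr19:34583279-34583578, plus strand: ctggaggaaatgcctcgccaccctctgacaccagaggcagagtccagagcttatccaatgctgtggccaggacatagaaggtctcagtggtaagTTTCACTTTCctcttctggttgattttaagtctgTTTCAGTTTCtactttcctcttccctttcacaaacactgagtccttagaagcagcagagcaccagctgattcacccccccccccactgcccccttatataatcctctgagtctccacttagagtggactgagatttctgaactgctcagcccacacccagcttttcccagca
Isg15, chr4:156200769-156201068, minus strand: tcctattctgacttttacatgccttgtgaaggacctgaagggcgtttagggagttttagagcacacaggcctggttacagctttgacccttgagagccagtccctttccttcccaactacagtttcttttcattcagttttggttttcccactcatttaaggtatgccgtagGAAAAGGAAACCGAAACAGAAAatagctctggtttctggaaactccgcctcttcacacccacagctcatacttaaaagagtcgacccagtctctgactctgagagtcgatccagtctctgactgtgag
Rsad2, chr12:26456403-26456702, minus strand: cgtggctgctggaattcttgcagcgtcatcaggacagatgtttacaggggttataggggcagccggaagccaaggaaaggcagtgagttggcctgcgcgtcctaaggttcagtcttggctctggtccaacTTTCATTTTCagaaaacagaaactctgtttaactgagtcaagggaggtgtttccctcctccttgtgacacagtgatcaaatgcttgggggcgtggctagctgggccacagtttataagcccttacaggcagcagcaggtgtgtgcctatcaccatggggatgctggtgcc
Igtp, chr11:58199306-58199605, plus strand: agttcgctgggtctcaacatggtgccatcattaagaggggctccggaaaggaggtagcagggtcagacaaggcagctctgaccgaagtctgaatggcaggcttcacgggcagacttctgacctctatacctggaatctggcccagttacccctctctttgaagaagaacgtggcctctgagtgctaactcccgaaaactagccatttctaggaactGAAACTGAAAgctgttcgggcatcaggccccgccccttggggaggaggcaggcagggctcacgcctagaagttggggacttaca
Gbp2, chr3:142620413-142620712, plus strand: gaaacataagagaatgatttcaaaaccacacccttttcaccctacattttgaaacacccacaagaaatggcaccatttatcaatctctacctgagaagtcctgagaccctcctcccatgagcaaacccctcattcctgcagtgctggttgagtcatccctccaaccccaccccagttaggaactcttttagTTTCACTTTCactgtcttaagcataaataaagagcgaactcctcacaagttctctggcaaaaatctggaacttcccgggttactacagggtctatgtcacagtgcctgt
Oasl2, chr5:114896684-114896983, plus strand: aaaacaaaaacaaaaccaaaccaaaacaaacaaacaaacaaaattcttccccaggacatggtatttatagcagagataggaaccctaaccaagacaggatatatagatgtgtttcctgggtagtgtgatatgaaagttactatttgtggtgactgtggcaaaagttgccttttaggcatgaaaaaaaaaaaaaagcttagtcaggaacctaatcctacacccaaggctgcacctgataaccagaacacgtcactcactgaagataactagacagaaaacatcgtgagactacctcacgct
Ifit1 and Ifit3 each held a pair of matches, and Isg15 held 3 that overlap in a run of capitals. In Gbp2 the capitals begin 59 bases before the gene's start and in Igtp 34 bases before it. A match is only a match of letters, and these data hold no binding measurement. The 16 members with the element had a median knockout difference of -0.56 in white fat, and the 10 members without it -0.70, so both medians were negative, and the differences ran from -1.24 to 0.82 with the element and from -1.29 to 0.15 without it.

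In white fat the members' levels were mostly lower in the knockouts. Of 33 members, 28 had a negative difference and 5 a positive one, with a median of -0.56 beside -0.04 over all genes tested. The differences ran from -1.38 for Rtp4 to 0.82 for Ddx58. The number called at an adjusted p of 0.05 by limma over all genes was 0 of 33 members, and 0% of all genes were called. Without adjustment, 3 members and 1546 genes (10%) had a p below 0.05, and the lowest adjusted p of a member was 0.464. The 2 knockout samples both lay below both control samples for 14 members (42.4%), where 24.4% of all genes did so, and both lay above for Ddx58 alone, where 16.1% of all genes did.

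**Figure D1:**
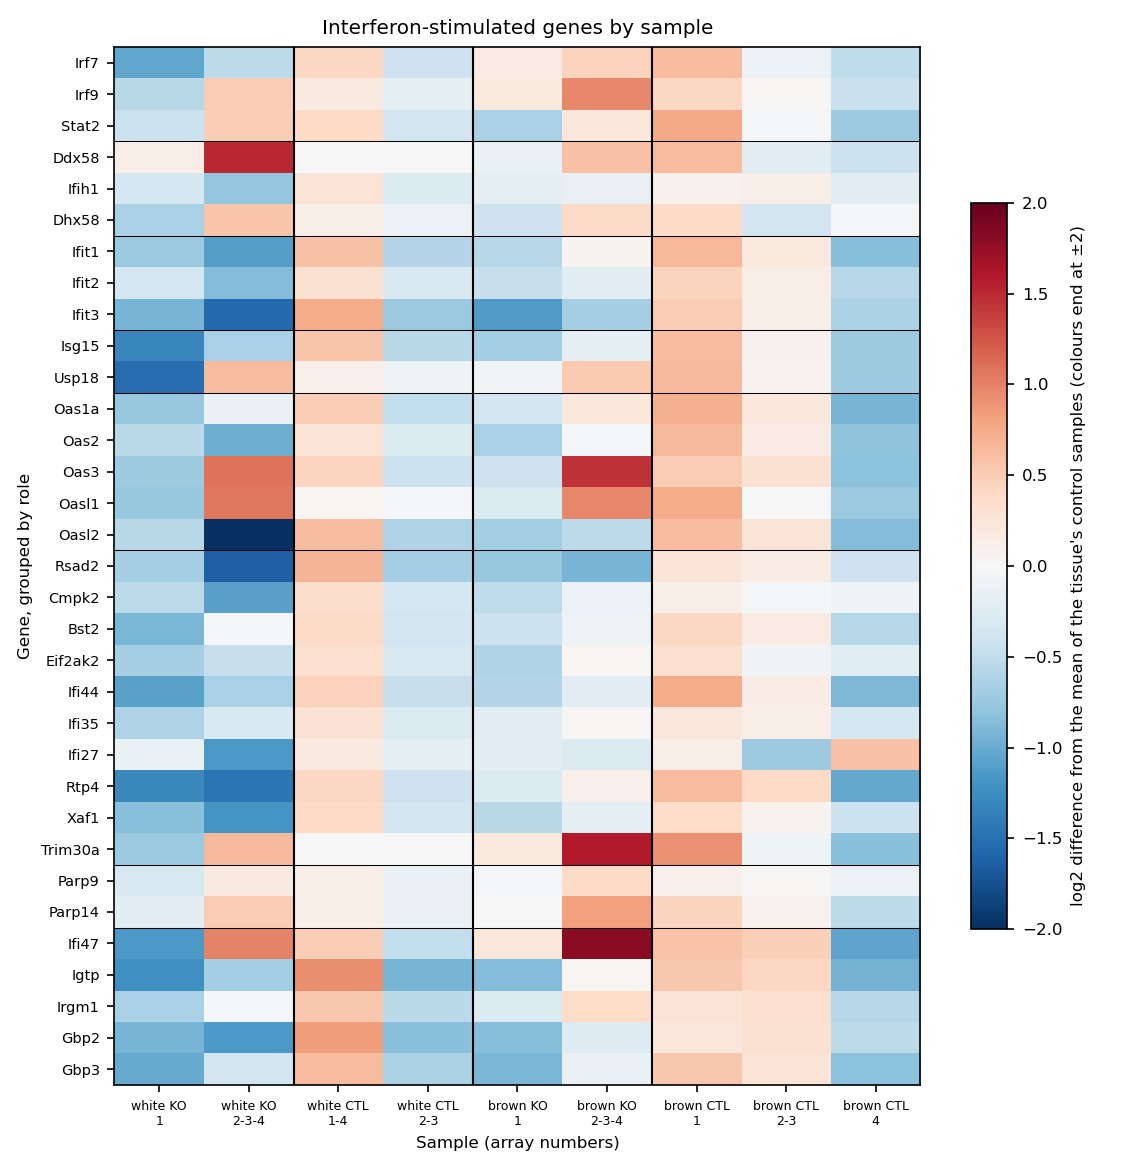
Log2 difference of each of the 33 members (rows, grouped by role) from the mean of the control samples of its tissue, in the 9 samples (columns, named by tissue, genotype and array numbers; KO is knockout, CTL is control); blue is lower and red is higher. White control arrays 1 and 4 are red in nearly every row and arrays 2 and 3 blue, and brown control arrays 1 and 4 contrast in the same way.

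The 2 white control samples differed from each other in these genes more than most genes did. Control arrays 1 and 4 were above control arrays 2 and 3 for 32 of 33 members, where 59.4% of all genes were, and the median difference was 0.78, beside 0.067 over all genes. The gap was more than 2-fold for 9 members (27.3%), where 1.83% of all genes had such a gap. Igtp had the widest, at 1.87, followed by Gbp2 at 1.68, Ifit3 at 1.48 and Rsad2 at 1.35. Ddx58 had the narrowest, at -0.015. The knockout difference in white fat was smaller than the gap between the 2 control samples for 22 of the 33 members and for 30.2% of all genes.

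**Figure D2:**
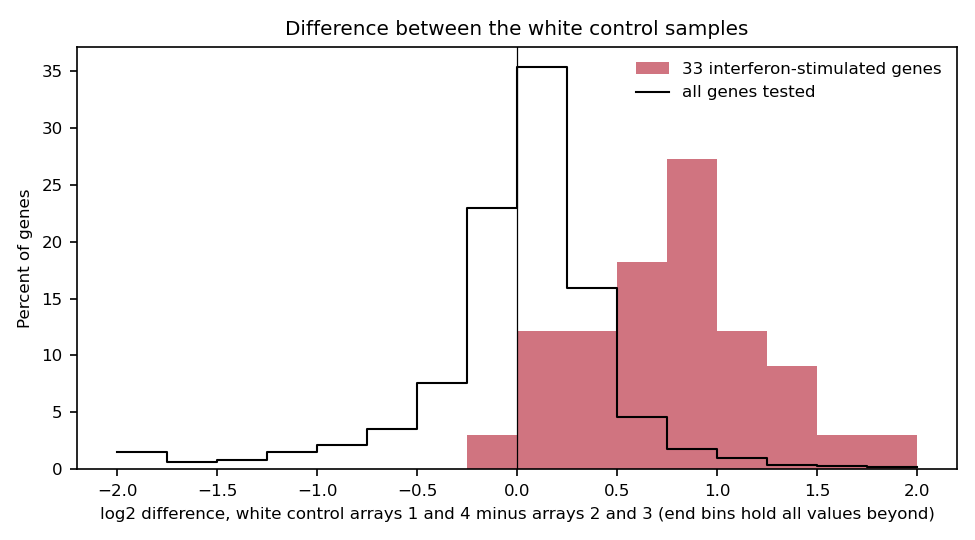
Percent of genes (vertical axis) by the log2 difference between the 2 white control samples (horizontal axis, arrays 1 and 4 minus arrays 2 and 3), for the 33 members (bars) and all 15467 genes tested (line). All genes centre near 0.067, while the members spread to the right around a median of 0.78.

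The size of the white knockout difference therefore depended on which control it was set against. White knockout array 1 had a median difference over the members of -1.17 from control arrays 1 and 4 and of -0.29 from control arrays 2 and 3. White knockout arrays 2 to 4 had medians of -0.94 from control arrays 1 and 4 and -0.016 from control arrays 2 and 3. Without control arrays 1 and 4 the members' median was -0.20 with 22 of 33 lower, and without control arrays 2 and 3 it was -0.88 with 30 lower. Within the slide that held both genotypes, knockout arrays 1 and 2 against control arrays 3 and 4, the median was -0.54 and 28 of 33 were lower. A fit with slide as a block can take this contrast from that slide alone, so its median of -0.54 is the same result.

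The 2 white knockout samples also differed. In knockout array 1, 32 of the 33 members were below the control mean, with a median deviation of -0.72. In knockout arrays 2 to 4 the median was -0.46 and 11 members were above the control mean: Oas3, Oasl1, Irf9, Stat2, Usp18, Ddx58, Dhx58, Trim30a, Parp14, Parp9 and Ifi47. Ddx58 was the single member above that mean in knockout array 1 as well.

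The Ifit genes encode proteins that bind foreign RNA ends and block its translation, and all 3 were below both control samples in both white knockout samples. Ifit3 had levels of 1.78 and 1.15 in knockout white fat against 3.45 and 1.97 in control white fat, a log2 difference of -1.24 ± 0.57 (SE, adjusted p = 0.508). Ifit1 had -1.16 and -1.52 in knockouts against 0.16 and -0.998 in controls, a difference of -0.92 ± 0.58 (adjusted p = 0.572). Control arrays 2 and 3 lay close above knockout array 1 for both genes, and the wide step was to control arrays 1 and 4. Ifit2 had a difference of -0.61 ± 0.40, and its second probe gave -0.07.

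Isg15 is a ubiquitin-like protein that is attached to other proteins, and Usp18 removes it and also dampens signalling at the interferon receptor. Isg15 had levels of -0.087 and 0.56 in knockout white fat against 1.76 and 0.66 in control white fat, a difference of -0.97 ± 0.54 (adjusted p = 0.548). The groups did not overlap, but control arrays 2 and 3 taken singly, at 0.79 and 0.54, stood on either side of the knockout level of 0.56. Usp18 had -0.92 and 1.23 in knockouts against 0.70 and 0.49 in controls, so its 2 knockout samples stood on either side of both controls.

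Of the effectors outside these families, all 10 had negative differences in white fat, with a median of -0.73. Rtp4, an interferon-induced transporter protein with antiviral activity, had levels of 2.76 and 2.59 in knockout white fat against 4.46 and 3.65 in control white fat. Both knockouts lay below both controls, and the difference of -1.38 ± 0.56 puts the knockout level at 0.385 of the control level (adjusted p = 0.497). Rsad2, the antiviral enzyme viperin, had -0.086 and -1.05 in knockouts against 1.26 and -0.087 in controls (difference -1.16 ± 0.51, adjusted p = 0.503). Knockout array 1 and control arrays 2 and 3 coincided, so the groups touched. Its 3 probes had differences of -1.16, -1.20 and -1.43. Xaf1, known as an inhibitor of an anti-apoptotic protein, had -0.099 and -0.44 in knockouts against 1.13 and 0.35 in controls, with no overlap (difference -1.01 ± 0.37, adjusted p = 0.464). Ifi44 had -1.10 and -0.67 in knockouts against 0.43 and -0.48 in controls (difference -0.86 ± 0.56, adjusted p = 0.581). Both controls lay above both knockouts for it too. Cmpk2, a nucleotide kinase encoded beside Rsad2, had a difference of -0.81 ± 0.32 and no overlap. Eif2ak2, the RNA-activated kinase PKR, had -0.56 ± 0.34, and Bst2, the virus-tethering protein tetherin, had -0.47 ± 0.46. Ifi35, Ifi27 and Trim30a had -0.46, -0.64 and -0.04, and a further probe of Trim30a gave 0.71.

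The 5 interferon-inducible GTPases, which act against microbes inside cells, also all had negative differences in white fat, with a median of -0.69. Gbp2 had levels of 2.45 and 2.24 in knockout white fat against 4.23 and 2.54 in control white fat, a difference of -1.04 ± 0.57 (adjusted p = 0.541). Igtp had 3.29 and 3.83 in knockouts against 5.44 and 3.58 in controls, a difference of -0.95 ± 0.74 (adjusted p = 0.629). For both genes control arrays 1 and 4 stood apart from the other 3 samples, which lay together, and the Igtp groups overlapped. Gbp3 had -0.69 ± 0.60 and Irgm1 -0.34 ± 0.49. Ifi47 had 0.36 and 2.50 in knockouts against 2.01 and 1.01 in controls, so its 2 knockout samples were the lowest and the highest of the 4.

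Oas enzymes make oligoadenylates that activate an RNA-degrading enzyme, and the Oas-like protein Oasl1 lacks this activity. The 5 genes of the family had differences of both signs. Oasl2 had levels of 1.38 and -0.095 in knockout white fat against 2.55 and 1.31 in control white fat (difference -1.29 ± 0.68, adjusted p = 0.537). Knockout array 1 lay between the 2 controls and knockout arrays 2 to 4 far below them. Oas2 had a difference of -0.76 ± 0.50 without overlap, and Oas1a -0.45 ± 0.59 with overlap. Oas3 and Oasl1 had 0.18 ± 0.84 and 0.15 ± 0.73, each with knockout arrays 2 to 4 highest. The second Oas3 probe gave -0.95, so the gene's direction rests on the probe chosen.

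The 3 transcription factors and the 3 RNA sensors had medians close to 0 in white fat, at -0.02 and -0.04. Irf7, which drives interferon production, had a difference of -0.78 ± 0.45 in white fat with both knockouts below both controls. Irf9 and Stat2, partners in the complex that reads out type I interferon, had -0.02 ± 0.46 and 0.03 ± 0.59, and the second Irf9 probe gave -0.86. Among the sensors, Ifih1 had -0.56 ± 0.28 and Dhx58 -0.04 ± 0.47. Ddx58, the RNA sensor RIG-I, had -0.32 and 1.05 in knockouts against -0.46 and -0.45 in controls. Its difference of 0.82 ± 0.54 (adjusted p = 0.589) came from its brightest probe alone, and the other 3 gave -0.15, -0.56 and 0.05. Parp9 and Parp14, which attach ADP-ribose to proteins, had -0.07 ± 0.27 and 0.14 ± 0.44.

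**Figure D3:**
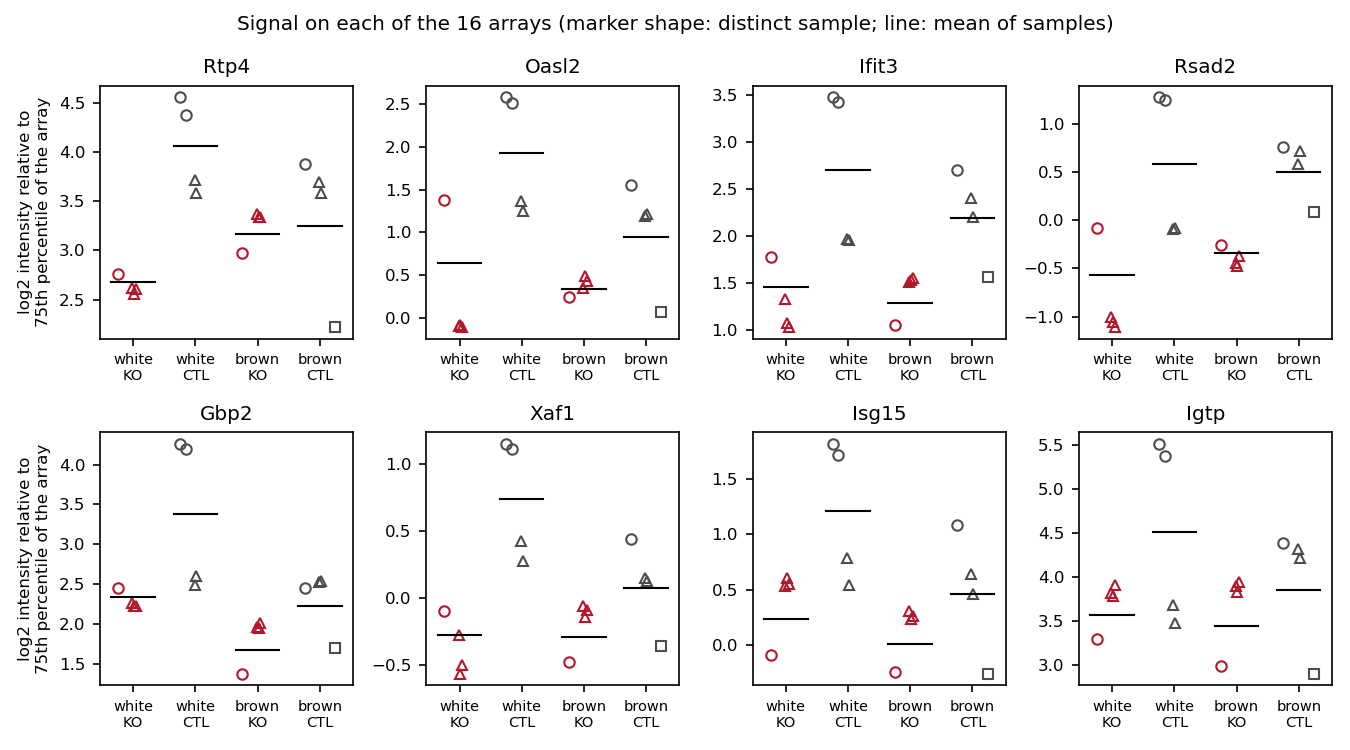
Log2 intensity relative to the 75th percentile of the array (vertical axes, scales differ) on each of the 16 arrays for the 8 members with the largest white knockout differences; marker shape gives the sample an array belongs to (circle, triangle and, for brown control array 4, square), and the line is the mean of the group's samples. Arrays counted as 1 sample fall almost on each other, and in white controls the 2 circles lie above the 2 triangles in all 8 panels.

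Counting all 16 arrays as separate samples gave another picture of the same values. In white fat, 13 members (39.4%) were then called lower, where 25.6% of all genes were, and Ddx58 was called higher (3.03% of members), where 19% of all genes were. The 13 were Ifit1, Ifit2, Ifit3, Oas2, Oasl2, Rsad2, Ifih1, Ifi27, Rtp4, Xaf1, Gbp2, Cmpk2 and Eif2ak2, with adjusted p values of 0.00220 for Xaf1 to 0.0491 for Eif2ak2. In brown fat, Rsad2 was called lower, where 17.8% of all genes were, and Irf9 and Trim30a were called higher, where 12.7% were. These calls take every array as a separate sample, as the design text does, and the 9-sample fit made none of them, so whether a member is called depends on what the close arrays are.

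In brown fat the members lay closer to 0. In the knockouts, 22 members had a negative difference and 11 a positive one, with a median of -0.21 beside -0.12 over all genes tested. The range ran from -0.90 for Ifit3 to 1.01 for Ifi47. No member was called (0 of 33, and 0% of all genes by limma), and 0 members and 1090 genes (7.05%) had an unadjusted p below 0.05. Both knockout samples lay below all 3 control samples for 3 members, Ifit3, Rsad2 and Cmpk2 (9.09%, where 21.2% of all genes did so), and above all of them for 0 members, where 13.1% of all genes did. Without brown control arrays 2 and 3 the members' median was -0.19, with 20 of 33 lower.

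The brown direction rested on single samples. Without knockout array 1 the members' median was 0.041 with 14 of 33 lower, without control array 1 it was 0.020 with 16 lower, and without knockout arrays 2 to 4 it was -0.42 with 28 lower. Within the slide that held both genotypes, knockout arrays 1 and 2 against control arrays 3 and 4, it was -0.0098 with 17 of 33 lower. The fit with slide as a block rests on that slide alone for this contrast, so its median of -0.0098 is the same result. In the authors' values without scaling between arrays the median was 0.22, where that of all genes was 0.31.

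Every brown knockout array lay below every brown control array for Ifit3 and Rsad2. Ifit3 had levels of 1.05 and 1.53 in knockout brown fat against 2.70, 2.31 and 1.57 in control brown fat, a difference of -0.90 ± 0.52 (adjusted p = 0.619). Rsad2 had -0.26 and -0.43 in knockouts against 0.76, 0.65 and 0.087 in controls, a difference of -0.84 ± 0.47 (adjusted p = 0.619). Control array 4 was nearest to the knockouts for both genes. Together with Cmpk2, Ifit3 was below every control in both tissues, as were 9.72% of all genes. Oasl2 had 0.25 and 0.42 in knockouts against 1.55, 1.20 and 0.070 in controls (difference -0.60 ± 0.62). Isg15 had -0.24 and 0.27 in knockouts against 1.08, 0.55 and -0.26 in controls (difference -0.45 ± 0.49). For both of these, control array 4 was at or below the lowest knockout sample.

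Among the GTPases of brown fat, Gbp2 had levels of 1.38 and 1.97 in knockouts against 2.45, 2.53 and 1.70 in controls (difference -0.56 ± 0.52). Gbp3 had 1.64 and 2.42 in knockouts against 3.10, 2.83 and 1.74 in controls (difference -0.53 ± 0.55). Knockout arrays 2 to 4 lay among the controls for both. Ifi47 went the other way, with 0.50 and 2.08 in knockouts against 0.85, 0.75 and -0.78 in controls, a difference of 1.01 ± 0.83 (adjusted p = 0.661). Its knockout arrays 2 to 4 were above every control, as in white fat, and knockout array 1 was not.

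Trim30a, Irf9 and Oas3 also had positive differences in brown fat. Trim30a, which in mice restrains inflammatory signalling, had -0.46 and 0.92 in knockouts against 0.26, -0.74 and -1.49 in controls (difference 0.89 ± 0.66, with 0.85 for its other probe). Irf9 had 0.90 and 1.66 in knockouts against 1.12, 0.73 and 0.25 in controls (difference 0.58 ± 0.42, with 0.58 for its other probe). Oas3 had -4.72 and -2.84 in knockouts against -3.78, -3.99 and -5.11 in controls (difference 0.52 ± 0.77, but 0.0057 for its other probe). Each was highest in knockout arrays 2 to 4 and overlapped in knockout array 1. Of all 33 members, 31 were higher in knockout arrays 2 to 4 than in knockout array 1.

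Brown controls varied over these genes as white controls did. Array 1 was the highest brown control for 29 of 33 members and array 4 the lowest for 31. The median gap between highest and lowest control was 1.14 over the members and 0.506 over all genes. Array 1 was more than 2-fold above array 4 for 19 members (57.6%), where 7.09% of all genes had such a gap, and the widest was 1.76 for Trim30a. Ifi27 went against this order, at -0.46. The brown knockout difference was smaller than the range of the controls for 31 of 33 members and for 66.0% of all genes.

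**Figure D4:**
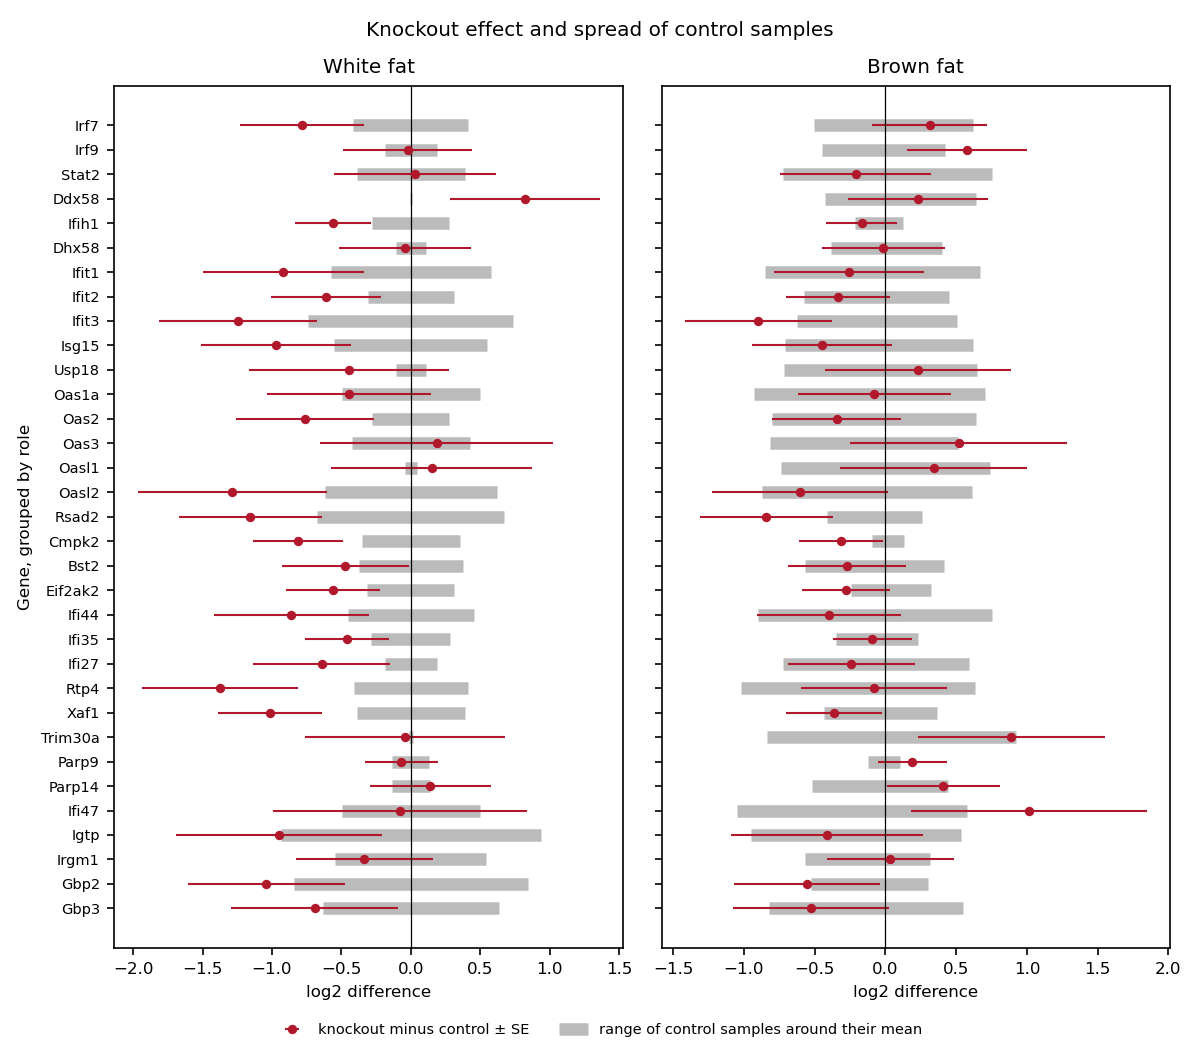
Knockout minus control on the log2 scale for each of the 33 members (points, with the standard error of the fit) in white fat (left) and brown fat (right); grey bars span the control samples around their own mean. White points lie mostly left of 0, 28 of 33, while 22 of 33 brown points do, and grey bars are wide in both tissues.

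Of the 33 members, 25 had the same sign in both tissues, 21 negative and 4 positive (Oas3, Oasl1, Ddx58 and Parp14). The knockout difference in brown fat minus that in white fat was positive for 31 members and negative for Stat2 and Ddx58, with a median of 0.39 beside 0.015 over all genes. The widest were Rtp4 at 1.30, Irf7 at 1.10 and Ifi47 at 1.09. The test of this difference called 0 members and 0% of genes (limma, adjusted p of 1 for every member), and 0 members and 402 genes had an unadjusted p below 0.05. Without white control arrays 1 and 4 the median was 0.065, and without white control arrays 2 and 3 it was 0.80; without brown control arrays 2 and 3 it was 0.48. A difference between the knockout effects of the 2 tissues was thus not shown by this test.

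Between tissues, members were lower in brown than in white fat of controls. No slide held both white and brown control arrays, so tissue and slide cannot be told apart within the controls. All 33 had a negative difference, with a median of -0.53 beside -0.09 over all genes, of which 55.2% were negative. The test called 0 of the 33, where 5.05% of all genes were called, and 3 members had an unadjusted p below 0.05, as did 3521 genes (22.8%). Ifi44 had levels of -0.53, -1.13 and -2.18 in brown controls against 0.43 and -0.48 in white controls, a difference of -1.26 ± 0.51 (adjusted p = 0.201). Ifi47 had 0.85, 0.75 and -0.78 in brown controls against 2.01 and 1.01 in white controls (-1.24 ± 0.83). Every brown control lay below every white control for both genes. Gbp2 had 2.45, 2.53 and 1.70 in brown controls against 4.23 and 2.54 in white controls (-1.16 ± 0.52), Irf7 had a difference of -0.99 ± 0.41 and Oasl2 one of -0.99 ± 0.62. Without white control arrays 1 and 4 the members' median was -0.22, and without white control arrays 2 and 3 it was -0.88. Without brown control arrays 2 and 3 it was -0.57, with 32 of 33 lower. Other lists were lower in brown controls too. This held for 38 of 40 other type I targets (median -0.71), 13 of 13 antigen presentation genes (-0.79), 15 of 15 macrophage markers (-1.13, 2 called), 19 of 21 T, B and NK cell markers (-1.62) and 9 of 10 dendritic cell markers (-0.73). The part of these cells in the members' tissue difference was not tested.

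In knockouts the tissues were closer. Here too no slide held both white and brown knockout arrays, so tissue and slide cannot be told apart within the knockouts. Brown fat was below white fat for 22 members and above it for 11, with a median of -0.12 beside -0.04 over all genes, and 0 members were called, where 1.54% of all genes were. With 16 arrays and the replicate number as a block, Ddx58 was called lower (1 of 33, where 25.1% of all genes were called in either direction). No member had an unadjusted p below 0.05 (2365 genes had). Without white knockout array 1 the median was -0.45, and without brown knockout array 1 it was 0.097. Ddx58 had levels of -1.04 and -0.32 in brown knockouts against -0.32 and 1.05 in white knockouts (-1.04 ± 0.54), although its other 3 probes gave -0.50, 0.08 and -0.28. Ifi44, Stat2, Gbp2 and Gbp3 had -0.79, -0.73, -0.67 and -0.61. The 2 comparisons between tissues and those of the knockouts share samples, so their values are given side by side only.

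The rest of the pathway showed where the members stood within it. No gene of any interferon list was called in a knockout comparison, where 0% of all genes were called. Of the 18 interferon genes listed, 11 were matched on the array and 6 tested, and the signals of Ifna4 and Ifnb1 did not clear the background on any of the 16 arrays. In white fat 4 of the 6 were lower in knockouts (median -0.10), and in brown fat 3. Ifna2 had differences of -0.67 ± 0.57 in white fat and -1.29 ± 0.52 in brown fat. Ifna genes are near-identical copies, and a probe may read several.

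When samples were averaged, the receptors and signal carriers, listed as 11 genes, did not share the members' direction. Of these, 4 were lower in white knockouts (median 0.13) and 2 in brown knockouts (median 0.12). In white knockout array 1, however, 9 of the 11 were below the control mean (median -0.39). In white knockout arrays 2 to 4, 9 were above it (median 0.54). Ifnlr1, a receptor chain for type III interferons, and Stat3 had differences of 1.06 ± 0.40 and 0.88 ± 0.35 in white fat. Of the 7 other interferon regulatory factors, 1 was lower in white knockouts and 0 in brown (medians 0.42 and 0.50). Irf8, a factor of myeloid and B cells, had 2.12 and 5.48 in white knockouts against 2.55 and 3.42 in white controls, and so was highest in knockout arrays 2 to 4. Of 14 tested nucleic acid sensors and adaptors, 5 were lower in white knockouts and 3 in brown (medians 0.16 and 0.34), and Aim2 did not clear the background on any of the 16 arrays. Of 8 negative regulators, 1 was lower in white and 2 in brown (medians 0.50 and 0.46). These counts, too, average samples that differed. In white knockout array 1, 11 of the 14 sensors and 7 of the 8 negative regulators were below the control mean (medians -0.35 and -0.41). In white knockout arrays 2 to 4, 10 and 7 were above it (medians 0.74 and 1.17). The 7 regulatory factors had medians of -0.20 in white knockout array 1 and 1.22 in arrays 2 to 4.

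When samples were averaged, further interferon targets were of 2 kinds by their values. The other interferon-inducible GTPases resembled the members: 9 of 10 were lower in white knockouts (median -0.76) and 8 in brown (median -0.23), and all 10 were higher in white control arrays 1 and 4 than in arrays 2 and 3, 5 of them more than 2-fold. Iigp1, a GTPase that coats parasite vacuoles in mice, had 2.90 and 3.33 in white knockouts against 5.07 and 3.57 in white controls (difference -1.21 ± 0.70). Gbp6 had 0.46 and -0.049 in white knockouts against 2.23 and 0.36 in white controls (-1.09 ± 0.65). In both, control arrays 1 and 4 alone stood high. The 40 other type I targets tested were mixed: 23 were lower in white knockouts (median -0.14) and 12 in brown (median 0.39). Of these 40, 31 were higher in white control arrays 1 and 4 than in arrays 2 and 3, 2 of them more than 2-fold. Ifit3b, a close copy of Ifit3 whose probe may share its transcripts, had -1.44 ± 0.58 in white fat, and Lgals3bp had -0.85 ± 0.30. Of 13 antigen presentation genes, 6 were lower in white knockouts and 1 in brown (medians 0.03 and 0.28), and all 13 were higher in white control arrays 1 and 4. Of 5 chemokines, 4 were lower in white and 3 in brown (medians -0.24 and -0.13), with Ccl7 at -1.56 ± 0.59 in white fat. In white knockout array 1 each of these lists lay mostly below the control mean. This held for 10 of 10 GTPases, 37 of 40 type I targets, 13 of 13 antigen presentation genes and 5 of 5 chemokines. Their medians were -0.88, -0.49, -0.62 and -1.45 there, beside -0.26, 0.37, 0.59 and 0.70 in white knockout arrays 2 to 4.

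Markers of other cell types moved between the same samples. The 21 tested T, B and NK cell markers had summed linear levels, relative to the 75th percentile of the array, of 30.0 and 272 in white knockouts against 13.9 and 58.1 in white controls, and of 47.2 and 155 in brown knockouts against 38.7, 5.93 and 2.99 in brown controls. Of these markers, 19 were higher in white knockouts and 18 in brown knockouts when samples were averaged. None was called, where 0% of all genes were. In white fat the rise lay in knockout arrays 2 to 4, where all 21 were above the control mean (median 2.88). In white knockout array 1, 18 of the 21 were below that mean (median -0.87). In white controls the order ran against the members: 1 of the 21 markers was higher in arrays 1 and 4, where the members were high. In brown controls it ran with them, since array 1 held both the highest lymphocyte sum and the highest median of the members. Knockout arrays 2 to 4 held the most lymphocyte signal in each tissue. The 10 proliferation genes followed them there, at summed levels of 4.47 and 43.9 in white knockouts against 4.12 and 8.26 in white controls, and of 9.25 and 19.1 in brown knockouts against 3.43, 2.82 and 4.48 in brown controls.

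The 15 macrophage markers had summed levels of 81.4 and 113 in white knockouts against 131 and 103 in white controls, with 11 lower in white knockouts (median -0.48) and 11 in brown (median -0.42). They were higher in white control arrays 1 and 4 for 11 of 15, with a median gap of 0.23. The 10 adipocyte markers were all lower in knockouts of both tissues (medians -0.84 and -0.30) when samples were averaged. In white fat the decrease lay mostly in knockout arrays 2 to 4, with a median of -1.69 from the control mean. In white knockout array 1 the adipocyte median was -0.10, and 4 of the 10 markers were above the control mean. The 8 brown adipocyte markers were all higher in brown than in white controls (median 3.0) when samples were averaged, although in brown control arrays 2 and 3 their median lay 1.93 below the brown control mean. Higher in brown controls were also all 12 skeletal muscle markers, each of which was called. All 8 mesothelial markers were lower in white knockouts (median -1.69), at summed levels of 28.5 and 2.12 in white knockouts against 33.5 and 17.1 in white controls. All 8 were also higher in white control arrays 1 and 4 than in arrays 2 and 3, as 32 of the 33 members were, with a median gap of 1.08 and 4 over 2-fold. The mesothelial decrease lay in knockout arrays 2 to 4, and in knockout array 1, 6 of the 8 were above the control mean. Of the members, 21 were higher in white knockout arrays 2 to 4 than in array 1. The members with the largest white differences, Rtp4, Oasl2, Ifit3 and Rsad2, were lower in arrays 2 to 4. All 4 erythroid markers (median -1.66) and 9 of 10 endothelial markers (median -0.59) were lower in white knockouts as well. Their medians from the control mean were -2.54 and -0.88 in white knockout arrays 2 to 4, beside -0.75 and -0.12 in knockout array 1. The part of lymphocytes, macrophages, adipocytes, muscle, mesothelium, red cells and endothelium in the members' differences was not tested.

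**Figure D5:**
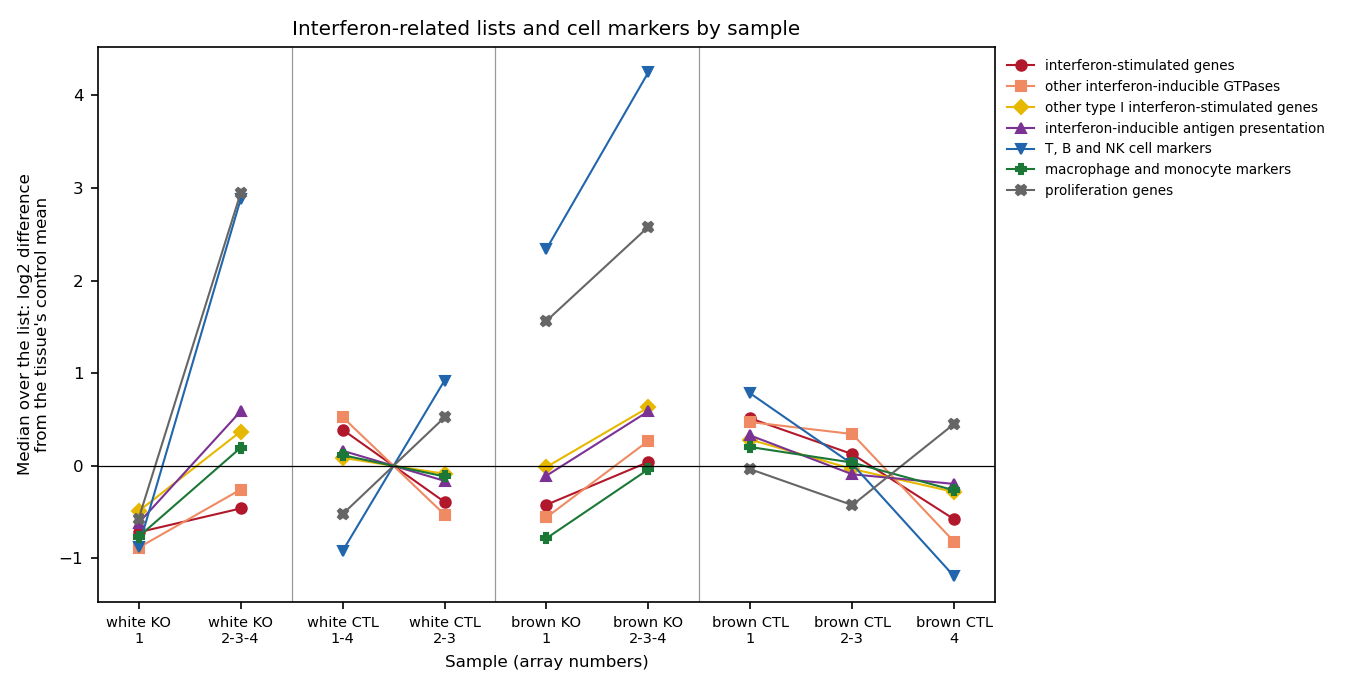
Median over each list of the log2 difference from the control mean of the tissue (vertical axis) in the 9 samples (horizontal axis), for the 33 members, 3 further interferon lists, 2 lists of cell markers and proliferation genes; lines join samples of a group. The members and the other GTPases are high in white control arrays 1 and 4 (0.39 and 0.53), where the lymphocyte markers are low (-0.92), and knockout arrays 2 to 4 hold the highest lymphocyte medians (2.88 in white and 4.25 in brown fat).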

How the data were processed

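Per the labels' protocols, a Qiagen RNeasy kit served for extraction of total RNA, and the label was Cy3. Per the file headers, Feature Extraction 12.0.0.7 (Agilent) turned the scans into an intensity per spot, background-subtracted and detrended. The deposited intensity values are linear and unscaled between arrays. The authors' value table held the same intensity, with 99.85% of its values within 0.1% of the mean of the scanner values of their probe and column medians of 58.0 to 100.5, so its scale and direction are known and it is not centred. Each array had 43379 non-control spots, 67.3% to 77.0% of them well above background and 0 saturated, and the number of arrays limits the precision.

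Outlier spots were left out, spots of a probe averaged, and the log2 of the deposited intensity taken minus that of the 75th percentile of the array. Accessions named 28223 of 41174 probes through RefSeq (GRCm38.p6), and 12951 stayed unnamed and unused. The array design names another assembly, so probe coordinates are not given. A probe was kept if well above background on all 4 arrays of 1 group or more, and a gene took its brightest kept probe. Arrays of a group counted as 1 sample if their differences, divided by the stated spot error, had a median absolute deviation below 1 over probes with a mean above the 75th percentile. Groups were fitted together with limma 3.58.1 in R 4.3.3 (5 residual degrees of freedom, Benjamini-Hochberg over all genes, threshold 0.05). The procedure was run on simulated data whose changes were all larger than any member's difference, so that run does not cover differences of the members' size. Replicate numbers alone were not taken as pairs.

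The members and lists were chosen with earlier results of these data known, so lists are described by counts and medians. Named are, per knockout comparison, the 10 members with the largest difference, between tissues the 5 largest, and up to 4 genes of each other list; all members are accounted for, and 1 gene of another list is not reported here. Alternatives were the sample definition, replicate and slide blocks, background, scaling, filter, probe summary, variance model and leaving out arrays or samples. The files lack the mean raw signal, so normexp (offset 50) used the median raw signal.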

Additional observations from a re-analysis of the deposited data

How the results depend on the processing

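The called count for the members was 0 in all 5 comparisons under the distinct sample as a random block, the slide as a block, normexp background, quantile normalization, the authors' unscaled values, both other filters, the mean of a gene's probes, the trended and robust variance model, and with each array or distinct sample left out. Counting white control arrays as 1 sample, an alternative chosen after seeing the data because the lowest ratio among separate pairs was 0.999 when only the 7561 probes above the 75th percentile on every array were used, also gave 0. In the main fit, 0% of all genes were called in each knockout comparison and in their difference. Between tissues, 5.05% were called in controls and 1.54% in knockouts. Shares of all genes under the alternatives above are not given here. The counts of 0 are therefore not read as a result about the members. With 16 arrays as separate samples, 14 members were called in white knockouts (42.4%, beside 44.6% of all genes) and 3 in brown knockouts (9.09%, beside 30.5%). Between tissues, 8 were then called in controls (24.2%, beside 39.3%) and 1 in knockouts (3.03%, beside 25.6%). For the difference of the knockout effects 0 were called, beside 4.00% of all genes. With the replicate number as a block (replicate block), 13, 2, 6, 1 and 0 were called in these comparisons, beside 45.9%, 32.1%, 39.9%, 25.1% and 2.06% of all genes. Same-numbered arrays of different groups deviated together in no consistent way (r from -0.54 to 0.57). They did so between the tissues of knockouts (0.29 to 0.57), where arrays 2 to 4 count as 1 sample in each tissue, which leaves 2 distinct pairs; whether the tissues come from the same mice is not given in the sources used here.

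The median of the members stayed between -0.75 and -0.53 in white knockouts over the alternatives that keep all samples. It stayed below 0 in brown knockouts except with the authors' unscaled values (0.22), which move the median of all genes to -0.23 in white and 0.31 in brown knockouts. The median of the difference between tissues was 1.02 there, beside 0.64 over all genes. In knockouts the median between tissues was 0.12 with slide as a block and 0.16 unscaled, beside -0.12. With slide as a block, the tissues are linked only through the slide that held white knockout and brown control arrays. Leaving out 1 sample gave medians of -0.88 to -0.20 in white knockouts, -0.42 to 0.041 in brown knockouts, 0.065 to 0.80 for the difference, -0.88 to -0.22 between tissues of controls and -0.45 to 0.097 between tissues of knockouts. Oasl2 turned to 0.22 between tissues of controls with slide as a block. Oas3 turned to -0.25 in brown knockouts with normexp, and its values there ran from -0.42 to 1.45 with a sample or array left out; the cause was not tested. In white and brown fat, 3 and 2 of the 10 members with several kept probes had probes that differ in sign.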
